A study of Mus musculus with 12 samples.

Results

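The HIN-200 genes, also called the Ifi200 family, encode interferon-inducible proteins that bind DNA, and they lie side by side on mouse chromosome 1. The 8 members described here are Aim2, Ifi204, Mndal, Mnda, Ifi203, Ifi205, Ifi207 and Ifi209. They were chosen by symbol as genes of this cluster that are similar in sequence and vary between the mice of this study, so that their spread between mice helped to choose them and is given as a description. They are 8 of the 18221 genes listed for spleen RNA of 12 male ICR mice, an outbred stock in which the mice of a group need not share a genotype. Con-sa mice (agent Blank in the labels) received saline, B-sa mice (Busulfan) a single injection of busulfan at 40 mg/kg and saline, and B+Con-FMT and B+A10-FMT mice the same busulfan injection followed by oral transfer of gut microbiota for 2 weeks. The transferred material was small intestine content, pooled over donor mice that had been given water (B+Con-FMT) or alginate oligosaccharide at 10 mg/kg (B+A10-FMT). The mice were 3 weeks old at the start, the spleens were taken at 8 weeks, and each group held 3 samples, taken here to be separate mice. Busulfan, an alkylating anticancer drug, was given to the 3 groups other than Con-sa, and no group received microbiota without it.

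A HIN domain binds double-stranded DNA, and in most members it is joined to a pyrin domain, which binds the pyrin domains of other proteins. AIM2 detects DNA in the cytosol and recruits the adaptor ASC (Pycard) and caspase-1 into an inflammasome that matures interleukin-1β and interleukin-18. IFI204 (p204) is a DNA sensor that acts through STING, and many genes of the cluster are switched on by interferon in macrophages and other leukocytes. In the spleen, red pulp and marginal zone macrophages, monocytes, dendritic cells and lymphocytes can all carry RNA of the family. Bulk RNA was measured, so fewer cells of a type and less RNA per cell cannot be told apart.

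All 8 members were matched to RefSeq (GRCm38.p6) on chromosome 1. The Mnda of these tables is the gene that RefSeq now names Ifi211. In the order of the chromosome, Aim2 lies at chr1:173349547-173466040, Ifi209 at chr1:173630859-173647928, Ifi207 at chr1:173723424-173741831 and Ifi204 at chr1:173747293-173767069. Further along are Mndal at chr1:173857215-173880382, Mnda at chr1:173896339-173913087, Ifi203 at chr1:173920400-173942866 and Ifi205 at chr1:174011998-174031755. The span of Aim2 also crosses Cadm3, a cell adhesion gene, and a tRNA gene, while the other 7 members overlap no other RefSeq gene.

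The stretch just before the transcription start is printed for 6 members, because it is the stretch in which the members' starts are most easily compared. The search was for GAAANNGAAA, the core of the element through which interferon acts, on both strands of the RefSeq promoters (250 bases before to 50 bases after the start). Of the 7 members with a promoter entry, 5 held a match (Mndal, Ifi203, Mnda, Ifi205 and Ifi207), and Ifi209 and Aim2 held none. By promoter entry these were 6 of 9, where 3.44% of all 32851 promoters held one, and by gene 3.99% of all 27025 genes did. The lines below give 40 bases of the strand of the gene, 5′ to 3′, with the 10 letters of the match in capitals, or for Ifi209 the 10 letters at the same place in the stretch most like that of Mndal.
Mndal (chr1:173880198-173880237, minus strand): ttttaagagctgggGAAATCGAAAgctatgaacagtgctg
Ifi203 (chr1:173942502-173942541, minus strand): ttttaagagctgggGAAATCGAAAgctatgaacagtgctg
Mnda (chr1:173913058-173913097, minus strand): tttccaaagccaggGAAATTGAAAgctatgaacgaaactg
Ifi205 (chr1:174031864-174031903, minus strand): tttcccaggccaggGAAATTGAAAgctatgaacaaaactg
Ifi207 (chr1:173741825-173741864, minus strand): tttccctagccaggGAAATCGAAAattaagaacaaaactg
Ifi209 (chr1:173630766-173630805, plus strand): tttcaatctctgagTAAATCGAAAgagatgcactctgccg
Mndal and Ifi203 shared all 40 letters, and Mnda shared 30, Ifi205 29, Ifi207 28 and Ifi209 28 of them with Mndal at the same place. The second promoter entry of Mndal held a match on the other strand, that of Ifi203 held none, and Ifi205 held a further match after its start. The match in the printed lines began 36 bases before the start in Mndal, 35 in Ifi203, 37 in Mnda, 41 in Ifi207 and 134 in Ifi205. The Ifi209 stretch kept 7 of the 8 fixed letters of the motif. Over their whole promoters Mndal and Ifi203 were 90.7% identical, and Mnda and Ifi207 85.9%. A match is a description of the letters and not a site shown to be used. Of the 5 other HIN-200 genes with values, Ifi206, Ifi208, Ifi213 and Ifi214 also held a match and Ifi202b held none.

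The values are RPKM, reads scaled to transcript length and library size, summed over the transcripts of each gene. The sum of RPKM was 677033 to 772157 per mouse, of which globin took 23.3% to 32.4%, and the smallest step between low values corresponded to about 13000000 to 13600000 reads per mouse. The B cell genes Cd79a, Cd79b and Cd37, which a spleen should express, averaged 625, 381 and 350 RPKM over the mice. Other RNA moved between the mice: the summed level of 12 pancreatic acinar genes was 1487 to 8094 RPKM in the Con-sa mice, 530 to 3791 in the B-sa mice, 9273 to 14787 in the B+Con-FMT mice and 507 to 10813 in the B+A10-FMT mice. For 8 kidney genes the sums were 77.1 to 119, 7.94 to 15.5, 18.2 to 63.5 and 0.71 to 3.36 RPKM, and the 3 of them tested (Kap, Slc34a1 and Miox) were called lower in B-sa against Con-sa and in B+A10-FMT against Con-sa. Kap was also called lower in B+A10-FMT against B-sa (log2 fold change -2.24), and Kap (-3.59) and Miox (-0.77) were called lower in B+A10-FMT against B+Con-FMT. The part of the pancreatic and kidney RNA in the results was not tested.

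Aim2, the inflammasome sensor, was among the steadiest of the family. It was at 29.4, 33.5 and 31.7 RPKM in the Con-sa mice, at 30.7, 28.8 and 30.5 in the B-sa mice, at 28.0, 24.3 and 25.0 in the B+Con-FMT mice and at 29.6, 30.3 and 36.0 in the B+A10-FMT mice. The B+Con-FMT mice were all below the mice of the other 3 groups, which overlapped one another. Group means were 31.5 ± 2.06, 30.0 ± 1.02, 25.8 ± 1.996 and 32.0 ± 3.47 RPKM (SD, n = 3), and the highest of the 12 mice was 1.48 times the lowest.

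Ifi204, the sensor of the STING route, varied more. It was at 18.2, 20.1 and 17.2 RPKM in the Con-sa mice, at 15.96, 13.6 and 11.6 in the B-sa mice, at 14.7, 15.3 and 17.6 in the B+Con-FMT mice and at 13.97, 25.8 and 24.7 in the B+A10-FMT mice. All B-sa mice were below all Con-sa mice, and the B+A10-FMT group held both the highest mice and 1 mouse inside the B-sa range. The means were 18.5 ± 1.44, 13.7 ± 2.18, 15.9 ± 1.57 and 21.5 ± 6.55 RPKM.

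Mndal, a relative of the human myeloid nuclear antigen MNDA, was the most abundant member, and its highest mouse was 3.03 times its lowest, a ratio that only Mnda exceeded among the 8 (3.19). It was at 73.9, 79.5 and 75.8 RPKM in the Con-sa mice, at 47.1, 36.6 and 43.6 in the B-sa mice, at 58.8, 62.8 and 68.2 in the B+Con-FMT mice and at 65.9, 111 and 108 in the B+A10-FMT mice. The B-sa mice were the 3 lowest of the 12, the B+Con-FMT mice stood between them and Con-sa without overlap, and mice 2 and 3 of B+A10-FMT were above all others. The means were 76.4 ± 2.84, 42.4 ± 5.38, 63.3 ± 4.75 and 95.0 ± 25.2 RPKM.

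Ifi203, the gene whose promoter is closest to that of Mndal, followed the same order at a lower level. It was at 34.9, 40.1 and 37.1 RPKM in the Con-sa mice, at 31.0, 25.1 and 27.0 in the B-sa mice, at 31.5, 29.4 and 32.8 in the B+Con-FMT mice and at 37.4, 54.3 and 47.4 in the B+A10-FMT mice. B-sa and B+Con-FMT overlapped, and both lay below every mouse of Con-sa and B+A10-FMT. The means were 37.4 ± 2.61, 27.7 ± 3.02, 31.2 ± 1.67 and 46.4 ± 8.495 RPKM.

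Mnda and Ifi205, the pair most alike in transcript sequence (85.4% identity), were found at lower levels. Mnda was at 4.55, 4.38 and 3.76 RPKM in the Con-sa mice, at 2.89, 3.25 and 1.94 in the B-sa mice, at 2.98, 3.88 and 4.05 in the B+Con-FMT mice and at 3.37, 5.90 and 6.19 in the B+A10-FMT mice. Ifi205, which is known to raise the expression of the adaptor ASC, was at 10.97, 11.9 and 11.03 RPKM in the Con-sa mice, at 9.03, 8.65 and 9.54 in the B-sa mice, at 7.06, 7.45 and 10.5 in the B+Con-FMT mice and at 10.04, 15.5 and 11.3 in the B+A10-FMT mice. For both genes all B-sa mice were below all Con-sa mice and below all B+A10-FMT mice. The means of Mnda were 4.23 ± 0.416, 2.69 ± 0.677, 3.64 ± 0.575 and 5.15 ± 1.55 RPKM, and those of Ifi205 were 11.3 ± 0.544, 9.07 ± 0.447, 8.34 ± 1.89 and 12.3 ± 2.85 RPKM.

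Ifi207 and Ifi209, both with a pyrin and a HIN domain, differed in their spread. Ifi207 was at 4.67, 5.22 and 4.32 RPKM in the Con-sa mice, at 4.0, 3.96 and 3.32 in the B-sa mice, at 3.49, 4.0 and 4.44 in the B+Con-FMT mice and at 6.5, 8.82 and 5.18 in the B+A10-FMT mice (means 4.74 ± 0.454, 3.76 ± 0.382, 3.98 ± 0.475 and 6.83 ± 1.84). Every B+A10-FMT mouse was above every B-sa and B+Con-FMT mouse, mouse 1 included. Ifi209 was at 28.4, 32.6 and 27.0 RPKM in the Con-sa mice, at 28.6, 24.6 and 24.0 in the B-sa mice, at 30.9, 24.0 and 25.98 in the B+Con-FMT mice and at 27.0, 29.4 and 30.2 in the B+A10-FMT mice (means 29.4 ± 2.92, 25.7 ± 2.49, 27.0 ± 3.55 and 28.9 ± 1.67). Its groups all overlapped, and its highest mouse was 1.36 times its lowest, the narrowest range of the 8 genes.

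**Figure D1:**
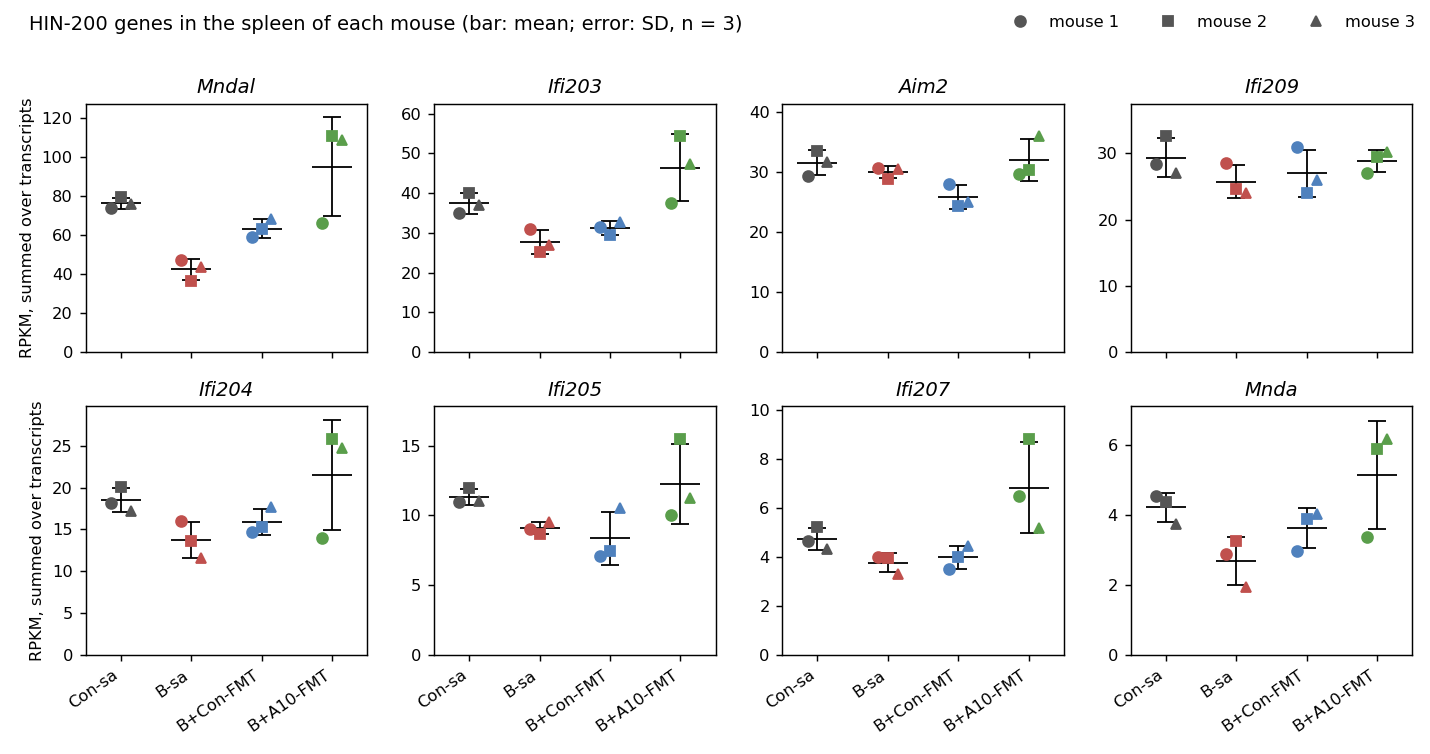
RPKM of each of the 8 HIN-200 genes (vertical axis, summed over transcripts, starting at 0) in the 4 groups, with 1 point per mouse, the group mean as a bar and the SD as error (n = 3). Mndal falls from 73.9 to 79.5 RPKM in Con-sa to 36.6 to 47.1 in B-sa, and mouse 1 of B+A10-FMT lies below mice 2 and 3 in most panels.

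By mean RPKM over the 12 mice the order was Mndal (69.3), Ifi203 (35.7), Aim2 (29.8), Ifi209 (27.7), Ifi204 (17.4), Ifi205 (10.2), Ifi207 (4.83) and Mnda (3.93). Within single mice Ifi203 was above Aim2 in 10 of 12, Aim2 above Ifi209 in 10 of 12 and Ifi207 above Mnda in 11 of 12, so that these neighbours changed places. The other neighbours kept their order in all 12 mice. The sum of the 8 genes was 205, 227 and 208 RPKM in the Con-sa mice, 169, 145 and 151 in the B-sa mice, 177, 171 and 189 in the B+Con-FMT mice and 194, 281 and 269 in the B+A10-FMT mice. All B-sa mice were below all other mice for this sum. Mndal made up 34.0% to 40.3% of it in the mice of B+A10-FMT and 25.3% to 28.8% in those of B-sa.

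**Figure D2:**
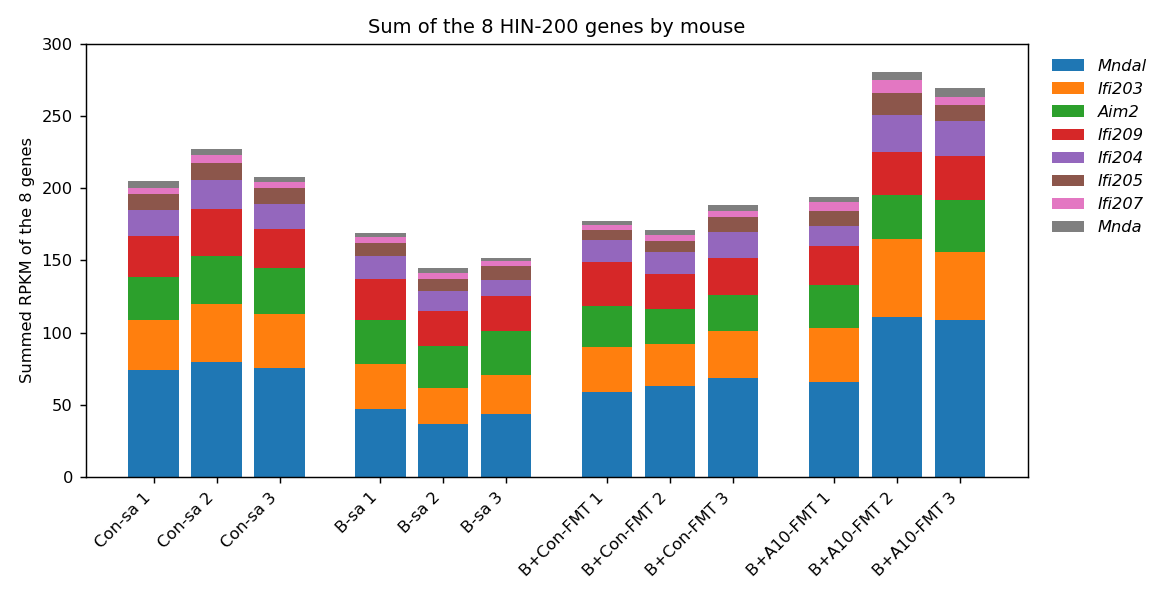
Summed RPKM of the 8 genes (vertical axis) in each of the 12 mice, stacked by gene. The B-sa bars are the lowest, at 145 to 169 RPKM, and the highest bars are mice 2 and 3 of B+A10-FMT, at 281 and 269 RPKM.

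The comparison of B-sa with Con-sa asks what busulfan changed. All 8 members were lower on average in B-sa, and the median of their log2 fold changes was -0.35 against -0.04 over all genes tested. Fold changes are those of log2(RPKM + 1), which understates the change of low genes. Mndal fell by 0.84 on the log2 scale (SE 0.17, limma Benjamini-Hochberg adjusted p = 0.0136), and its mean was 44.4% lower. Ifi203 fell by 0.42 (SE 0.12, limma adjusted p = 0.0320), and the difference of its means was -25.97%. These 2 of 8 members were called lower at an adjusted p under 0.05, where 9.78% of all 12671 genes tested were called lower and 4.73% higher. The count is printed beside that share as a description, since values of the same mice chose the members. The other 6 did not pass, with log2 fold changes of -0.52 for Mnda, -0.41 for Ifi204, -0.29 for Ifi205, -0.27 for Ifi207, -0.18 for Ifi209 and -0.07 for Aim2. For 6 members all B-sa mice were below all Con-sa mice, as for 22.8% of all genes tested. When only the RefSeq transcripts with an NM identifier were summed, neither Mndal (-0.66, adjusted p = 0.0731) nor Ifi203 (-0.46, adjusted p = 0.0744) passed, and over all other alternatives the adjusted p ran from 0.000706 to 0.0878 for Mndal and from 0.0120 to 0.125 for Ifi203. Without B-sa mouse 2 no member passed, and the Mndal change was then -0.74 (limma adjusted p = 0.0581). Ifi203 also did not pass without any single Con-sa mouse or without B-sa mouse 3 (-0.37 to -0.47, adjusted p 0.0561 to 0.1005).

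The comparison of B+Con-FMT with B-sa asks what transfer from control donors changed. No member passed with limma, where 0.844% of all genes were called. The mean of Mndal was 49.1% higher (log2 fold change 0.57, SE 0.17, limma adjusted p = 0.132), and that of Aim2 14.1% lower (-0.21, SE 0.08, limma adjusted p = 0.186). For both genes the mice of the groups did not overlap, in opposite directions, as for 10.4% of all genes with higher and 9.05% with lower values. The other 6 members had log2 fold changes between -0.13 for Ifi205 and 0.34 for Mnda, and their groups overlapped. Without B+A10-FMT mouse 1 the Mndal difference of 0.57 passed (limma adjusted p = 0.00899), where 0.561% of all genes were called higher.

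The comparison of B+A10-FMT with B-sa asks what transfer from alginate-fed donors changed. All 8 members were higher on average, with a median log2 fold change of 0.63 against 0.05 over all genes. Mndal rose by 1.11 (SE 0.17, adjusted p = 0.00968), and its mean was 2.24 times that of B-sa. Ifi203 rose by 0.71 (SE 0.12, adjusted p = 0.00925), Mnda by 0.72 (SE 0.19, adjusted p = 0.0473) and Ifi207 by 0.70 (SE 0.14, adjusted p = 0.0200), all by limma. These 4 of 8 members were called higher, where 4% of all genes tested were, and 1.27% were called lower. Ifi204 had a log2 fold change of 0.57 (SE 0.20, adjusted p = 0.118), Ifi205 of 0.38, Ifi209 of 0.16 and Aim2 of 0.09, and none of these passed. For 5 members all B+A10-FMT mice were above all B-sa mice, as for 19.7% of all genes. Without B-sa mouse 2, B-sa mouse 3 or B+A10-FMT mouse 2, 2 members passed, and Mnda lost its call without any single mouse other than B+A10-FMT mouse 1 (limma adjusted p 0.0516 to 0.155). Fitted on the mice of these 2 groups alone, no member passed, and the limma adjusted p of Mndal was then 0.0879. With NM transcripts or the highest transcript of each gene 2 members passed, and 3 did with median-of-ratios scaling, without a filter or with a replicate block.

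The comparison of B+A10-FMT with B+Con-FMT asks whether the donors' alginate mattered. The members called higher were Ifi203 (log2 fold change 0.54, SE 0.12, adjusted p = 0.0164), Ifi207 (0.63, SE 0.14, adjusted p = 0.0183), Ifi205 (0.50, SE 0.15, adjusted p = 0.0489) and Aim2 (0.30, SE 0.08, adjusted p = 0.0333), by limma. They were 4 of 8, where 7.58% of all genes were called higher, and the median over the members was 0.44 against 0.05 over all genes. Mndal, with a mean 1.502 times that of B+Con-FMT, did not pass (0.54, SE 0.17, adjusted p = 0.0686), and mouse 1 of B+A10-FMT at 65.9 RPKM lay inside the B+Con-FMT range. Mnda (0.38), Ifi204 (0.37) and Ifi209 (0.10) did not pass either. For Ifi203, Ifi207 and Aim2 all B+A10-FMT mice were above all B+Con-FMT mice, a pattern found in 23.8% of all genes. These calls depended on the processing, with 0 members called when the highest transcript stood for each gene, 1 with NM transcripts or in the 2 groups alone, 2 with median-of-ratios scaling or no filter, and 5 with totals made equal outside the globin genes. They also rest on single mice: without B+Con-FMT mouse 2 or without B+A10-FMT mouse 2 no member passed, without B+Con-FMT mouse 1 only 1 did, without B+A10-FMT mouse 3 there were 2, and without B+A10-FMT mouse 1 all members but Ifi209 passed. Ifi205 kept its call only without B+Con-FMT mouse 3 or B+A10-FMT mouse 1, and otherwise its limma adjusted p was 0.0587 to 0.165.

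The comparison of B+A10-FMT with Con-sa asks whether the treated spleens differed from untreated ones. No member passed with limma, where 0.41% of all genes were called. Ifi203 and Ifi207 had log2 fold changes of 0.29 (SE 0.12, limma adjusted p = 0.309) and 0.43 (SE 0.14, limma adjusted p = 0.240). The values of the other 6 lay between -0.02 for Ifi209 and 0.27 for Mndal. The groups overlapped for all 8 members, where 11.7% of all genes had all mice higher and 9.9% all mice lower. These comparisons share mice (B-sa is in 3 of them and B+A10-FMT in 3), so their values are not separate evidence. Among all genes the direction of calls depended on scaling: higher calls were 32.6% of the called genes in B-sa against Con-sa and 56.8% with median-of-ratios scaling, 75.9% and 46.6% in B+A10-FMT against B-sa, and 73.2% and 44.2% in B+A10-FMT against B+Con-FMT. With totals made equal outside the globin genes, the share was 37.2% in place of 73.8% in B+Con-FMT against B-sa and 89.8% in place of 73.2% in B+A10-FMT against B+Con-FMT.

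**Figure D3:**
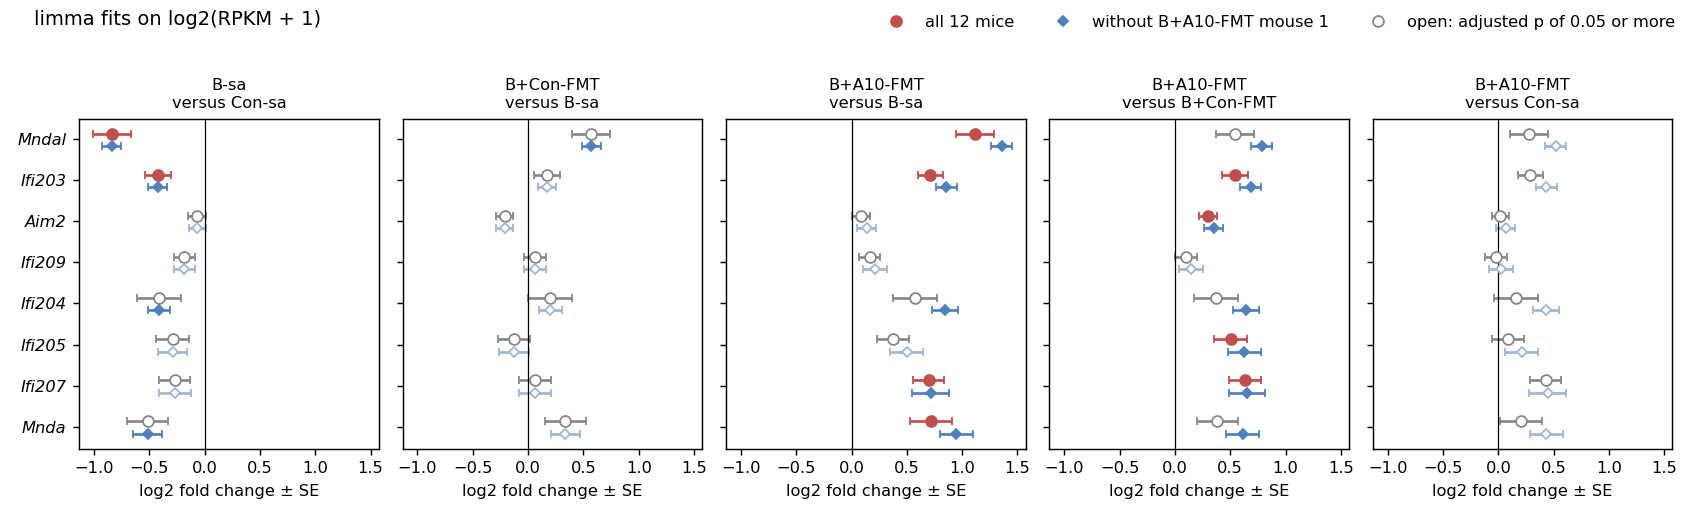
log2 fold change of each member with its SE (horizontal axis) in the 5 comparisons, from limma fits on log2(RPKM + 1) with all 12 mice (circles) and without mouse 1 of B+A10-FMT (diamonds), filled where the adjusted p was under 0.05. Mndal lies at -0.84 in B-sa against Con-sa and at 1.11 in B+A10-FMT against B-sa, and at 1.36 there without that mouse.

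Mouse 1 of B+A10-FMT stood apart from mice 2 and 3 in part of the family. The mean of mice 2 and 3 was 1.81 times mouse 1 for Ifi204, 1.79 for Mnda, 1.66 for Mndal, 1.36 for Ifi203 and 1.33 for Ifi205, but 1.12 for Aim2, 1.104 for Ifi209 and 1.08 for Ifi207. The median within-group SD of the 8 members, on the log2(RPKM + 1) scale, was 0.10 in the Con-sa mice, 0.14 in the B-sa mice, 0.14 in the B+Con-FMT mice and 0.32 in the B+A10-FMT mice. Over all genes tested it was 0.08, 0.10, 0.08 and 0.08 in the same groups. Each mouse was left out in turn, but mouse 1 was singled out here after its values for these genes were seen, so the fits without it describe the 11 other mice and are no separate evidence. Without mouse 1, 5 members were called higher in B+A10-FMT against B-sa, where 1.77% of all genes were, with Ifi204 added (0.84, adjusted p = 0.00569), and the Mndal difference was 1.36 (adjusted p = 8.1e-05). In B+A10-FMT against B+Con-FMT, 7 were then called higher, where 5.86% of all genes were, with log2 fold changes of 0.79 for Mndal, 0.68 for Ifi203, 0.65 for Ifi207, 0.64 for Ifi204, 0.63 for Ifi205, 0.61 for Mnda and 0.35 for Aim2. In B-sa against Con-sa 4 were called lower, where 8.58% of all genes were, Mnda (-0.52) and Ifi204 (-0.41) in addition. These fits were limma fits with adjusted p-values over all genes. Against Con-sa no member passed with or without mouse 1, and 0.0079% of all genes did without it.

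The 5 other genes of the cluster followed in part. Ifi214, which shares sequence with Ifi209, was at 8.07, 8.96 and 7.44 RPKM in the Con-sa mice, at 5.85, 4.11 and 4.57 in the B-sa mice, at 5.49, 6.13 and 6.20 in the B+Con-FMT mice and at 6.80, 12.5 and 9.46 in the B+A10-FMT mice. It fell in B-sa against Con-sa (-0.66, SE 0.17, adjusted p = 0.0255) and rose in B+A10-FMT against B-sa (0.83, adjusted p = 0.0204) and against B+Con-FMT (0.58, adjusted p = 0.0485), by limma. No other gene of the 5 passed in any comparison. Ifi206 ranged from 2.10 to 6.93 RPKM, with mice 2 and 3 of B+A10-FMT highest at 6.93 and 6.78, and Ifi202b, which lacks a pyrin domain and counteracts AIM2, ranged from 0.74 to 2.47 RPKM with the same 2 mice highest. Ifi213 ranged from 2.30 to 3.93 RPKM. Ifi208, of which RefSeq also gives the name Pydc3, ranged from 5.62 to 9.21 RPKM and was highest in mouse 1 of B-sa.

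**Figure D4:**
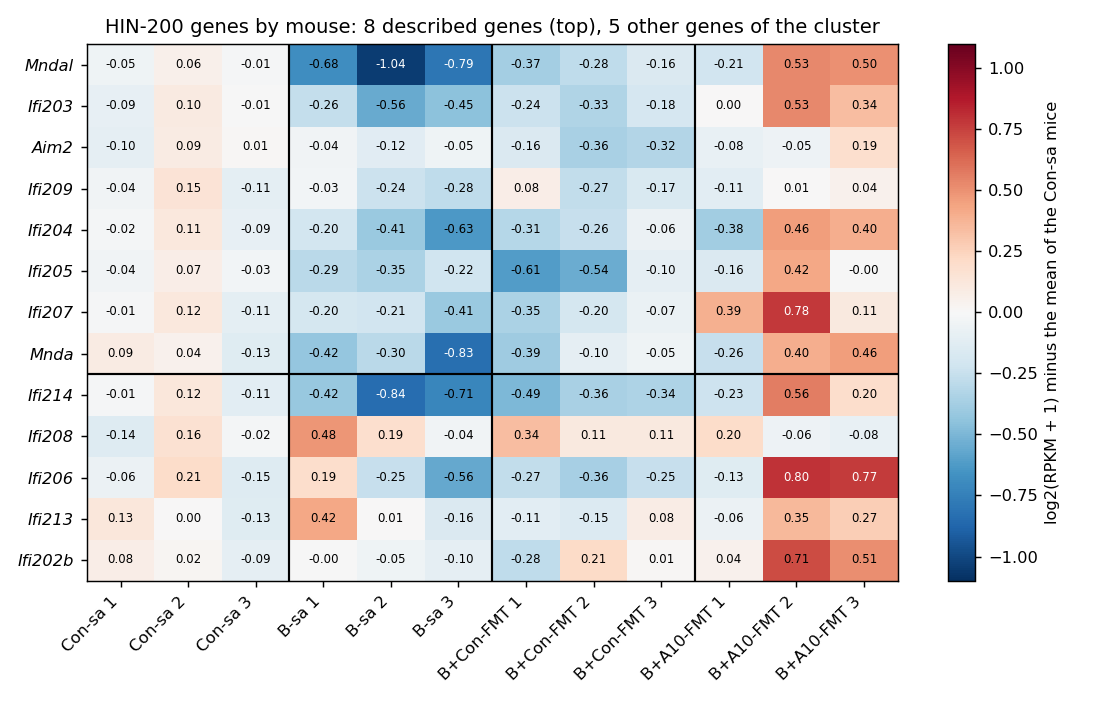
Each cell is log2(RPKM + 1) of a gene in 1 mouse minus the mean of the 3 Con-sa mice, for the 8 members (upper rows) and 5 other cluster genes (lower rows), with columns by mouse and group. The B-sa columns reach -1.04 for Mndal, and B+A10-FMT mice 2 and 3 are above the Con-sa mean in most rows while mouse 1 is below it in most.

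As a description of likeness, the 28 pairs of members had a Pearson r of log2(RPKM + 1) over the 12 mice between 0.26 and 0.94, with a median of 0.67. These mice fall into 4 groups that differ in level, so the values below are not tests. Mndal and Ifi203 were the most alike (r = 0.94, Spearman's rho 0.94, and 0.89 for their deviations from the group means). Mndal and Aim2 were far less alike (r = 0.36, rho 0.44). With B-sa mouse 2 and B+A10-FMT mouse 2 left out, the mice farthest from the median of Mndal, r was 0.91 for Ifi203, 0.88 for Ifi204, 0.94 for Mnda and 0.41 for Aim2. It fell from 0.69 to 0.55 for Ifi205, from 0.71 to 0.62 for Ifi207 and from 0.58 to 0.47 for Ifi209. Over all tested genes outside the 8, those most like Mndal were LOC102641031 (r = 0.98), Ifi214 (0.95) and Helz2 (0.94). LOC102641031, a protein-coding gene model that RefSeq lists under chromosome 1, was at 37.7 to 41.7 RPKM in the Con-sa mice, 22.5 to 31.6 in the B-sa mice, 34.6 to 36.0 in the B+Con-FMT mice and 36.9, 54.2 and 52.5 in the B+A10-FMT mice. Nearest to Ifi203 were Ifi214 (0.96), the translation factor Eef1a1 (0.96) and Ivd (0.95), and nearest to Ifi204 were the nuclear body gene Sp100 (0.93), Arhgef7 (0.92) and Ifi214 (0.91). For Mnda they were Arhgef7 (0.92), Slc17a5 (0.92) and Dcun1d4 (0.91), for Ifi205 Klhl13 (0.95), Gpr35 (0.95) and Hgf (0.93), and for Ifi207 Mtss2 (0.96), Gna12 (0.95) and Nectin4 (0.94). For Ifi209 they were Snx2 (0.93), Metap1d (0.92) and Bmt2 (0.90), and for Aim2 Tmem135 (0.95), Brms1l (0.92) and Cep192 (0.91).

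Of 32 other genes of DNA sensing and the inflammasome, 2 were called lower and 1 higher in B-sa against Con-sa, none in B+Con-FMT against B-sa, 2 higher with 1 lower for B+A10-FMT against B-sa, 6 higher in B+A10-FMT against B+Con-FMT and none in B+A10-FMT against Con-sa. The shares of all genes in the same order were 9.78% lower and 4.73% higher, 0.844% in either direction, 4% higher and 1.27% lower, 7.58% higher, and 0.41% in either direction. The first counts, 2 and 1 of 32, are near those shares, and the genes below are given as single genes. Nlrp3, the sensor of another inflammasome, rose in B+A10-FMT against B-sa (0.53, adjusted p = 0.0101) and against B+Con-FMT (0.43, adjusted p = 0.0150). Il18, a substrate of the AIM2 inflammasome, rose in B+A10-FMT against B+Con-FMT by 0.38 (adjusted p = 0.00917), and so did Naip2 (0.55), Naip5 (0.32), Trex1 (0.32), the exonuclease that clears cytosolic DNA, and Dnase1l3 (0.32), a secreted nuclease. Naip5 and the kinase Tbk1 fell in B-sa against Con-sa (-0.28 and -0.19), where Rnaseh2b rose (0.32), and in B+A10-FMT against B-sa Naip5 rose (0.28) and Rnaseh2b fell (-0.28). All these calls were by limma with adjusted p-values over all genes. The genes of this list with the highest level, Unc93b1, Samhd1 and Rnaseh2c, were called in no comparison.

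Of 17 genes of interferon receptors and signalling, 4 were called lower in B-sa against Con-sa, where 9.78% of all genes were, namely Irf8 (-0.33), Ifnar1 (-0.29), Jak1 (-0.27) and Irf2 (-0.19), and the phosphatase gene Ptpn2 was called higher (0.20), where 4.73% of all genes were. Ifngr1 (0.21) and Jak1 (0.23) rose in B+A10-FMT against B-sa, beside 4% of all genes, and Jak2 (0.24) in B+A10-FMT against B+Con-FMT, beside 7.58%. No gene of this list passed in the other 2 comparisons.

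Of the interferon-stimulated genes outside the cluster, 53 were tested. Trim30a (-0.50, adjusted p = 0.0494) and Trim25 (-0.23) fell in B-sa against Con-sa, Trim25 (0.27) and Ifit1bl1 (0.59) rose in B+A10-FMT against B-sa, and Eif2ak2 (0.61), Ifit1bl1 (0.57), Gbp3 (0.36) and Gbp2 (0.28) rose in B+A10-FMT against B+Con-FMT, by limma. The 2 and 4 higher calls stand beside 4% and 7.58% of all genes called higher in the same comparisons, shares close to those of the list, and the 2 lower calls beside 9.78% called lower. None passed in the other 2 comparisons. The median log2 fold change of the list was 0.04 in B-sa against Con-sa, where that of the 8 members was -0.35, and 0.27 in B+A10-FMT against B-sa, where that of the members was 0.63. In B+A10-FMT against B+Con-FMT the list was at 0.32 and the members at 0.44. In B+A10-FMT against Con-sa the list, at 0.29, was above the members, at 0.18. In B+Con-FMT against B-sa the list was at -0.05 and the members at 0.12. The difference between the lists was not tested. Ifi30, Ifitm3 and Ifi27l2a, the most abundant of the list, were called in no comparison, and mouse 2 of B+A10-FMT was the highest of the 12 for Ifitm3 (411 RPKM) and Ifi27l2a (416 RPKM).

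Marker genes of the cell types in the spleen are given beside these results, and the shares of all genes called are those printed above. They were 9.78% lower and 4.73% higher in B-sa against Con-sa, and 0.844% in either direction in B+Con-FMT against B-sa. For B+A10-FMT they were 4% higher and 1.27% lower against B-sa, 7.58% higher against B+Con-FMT and 0.41% in either direction against Con-sa. The summed level of 12 red pulp and marginal zone macrophage genes was 1098 to 1136 RPKM in the Con-sa mice, 953 to 1180 in the B-sa mice, 840 to 1073 in the B+Con-FMT mice and 1205 to 1487 in the B+A10-FMT mice, with 3 of the 12 called higher in B+A10-FMT against B-sa and 6 against B+Con-FMT. In B-sa against Con-sa 0 of the 12 macrophage and 0 of the 12 monocyte genes were called (limma, lowest adjusted p 0.177 and 0.0538), and the sums of both lists overlapped. The macrophage genes called higher in B+A10-FMT against B-sa and also against B+Con-FMT were Siglec1 (0.83 and 0.98), Spic (0.50 and 0.44) and the iron exporter Slc40a1 (0.55 and 0.68), and Slc40a1 was also called higher against Con-sa (0.55, limma adjusted p = 0.0434), where 0.41% of all genes were called. For 12 monocyte genes the sums were 663 to 755, 581 to 685, 526 to 635 and 656 to 857 RPKM, with 2 called higher in B+A10-FMT against B-sa, Treml4 (0.66) and Csf1r (0.46), and 5 against B+Con-FMT, among them Csf1r (0.46) and Plac8 (0.46). Dendritic cell genes summed to 160 to 164 RPKM in the Con-sa mice, 123.4 to 149 in the B-sa mice, 128 to 144 in the B+Con-FMT mice and 149 to 159 in the B+A10-FMT mice. Of these, 3 of 12 were called lower in B-sa against Con-sa (Siglech -0.76, Cd209a -0.64 and Clec4a4 -0.41), 1 lower in B+Con-FMT against B-sa (Siglech), 1 higher in B+A10-FMT against B-sa (Clec4a4 0.48) and 3 higher against B+Con-FMT (Siglech 0.90, Clec4a4 0.44 and Itgax 0.34). B cell genes summed to 2704 to 2945 RPKM in the Con-sa mice, 2057 to 2492 in the B-sa mice, 2347 to 2456 in the B+Con-FMT mice and 2383 to 2547 in the B+A10-FMT mice, with 9 of 12 called lower in B-sa against Con-sa. Of the B cell genes Pax5 was called lower in B+A10-FMT against B+Con-FMT (-0.28). For natural killer cell genes the sums were 174 to 183, 94.0 to 104, 94.3 to 107 and 97.3 to 126 RPKM, with 10 of 12 called lower in B-sa, 1 higher in B+Con-FMT against B-sa (Prf1 0.50), 2 higher in B+A10-FMT against B-sa, 3 higher against B+Con-FMT and 2 lower against Con-sa (Ncr1 -1.23 and Klre1 -0.89). For both lists all mice of the other 3 groups, B+A10-FMT included, were below all Con-sa mice. Neutrophil genes summed to 2116 to 2192, 3762 to 6155, 2434 to 3525 and 2097 to 5204 RPKM, with 4 of 12 called higher in B-sa against Con-sa. T cell genes summed to 381 to 450, 361 to 457, 472 to 580 and 411 to 487 RPKM in the order of the groups (2 of 12 called lower in B-sa against Con-sa, 2 higher in B+Con-FMT against B-sa, 1 higher for B+A10-FMT against B-sa), and endothelial genes to 263 to 275, 215 to 237, 205 to 234 and 269 to 285 RPKM. Of 12 endothelial genes 5 were called lower in B-sa against Con-sa (Stab2 -0.49, Plvap -0.36, Eng -0.35, Tie1 -0.26 and Pecam1 -0.21), 5 higher in B+A10-FMT against B-sa (Stab2 0.52, Cdh5 0.50, Eng 0.49, Plvap 0.42 and Kdr 0.39) and 8 higher against B+Con-FMT. Erythroid genes, mostly globin, summed to 129944 to 164962, 122350 to 147074, 109171 to 156464 and 108347 to 123341 RPKM. In B-sa against Con-sa Epor, Klf1, Rhd, Tfrc and Hba-a1 were called higher (0.30 to 0.40), and the globin genes Hbb-bs (-10.63) and Hbb-bt (-8.82) lower. In B+A10-FMT against B-sa Hbb-bs (9.22) and Hbb-bt (7.42) were called higher and Hba-a1 (-0.38) lower. Hbb-bs averaged 30507 ± 13568 RPKM in the Con-sa mice and 19.0 ± 10.8 in the B-sa mice (SD, n = 3). It averaged 8330 ± 11092 RPKM in the B+Con-FMT mice, with an SD above the mean, and 10924.5 ± 2174 in the B+A10-FMT mice. What lay behind this pattern was not tested. No marker of these lists was at 0 in all mice, and the part of the cell types in the results was not tested.

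The transcripts of the cluster share sequence, which limits how far reads can be assigned to single genes. Of all 50-base windows of the main RefSeq transcript, 72.9% in Mnda, 49.6% in Ifi205, 34.7% in Ifi209, 29.9% in Ifi204, 27.2% in Mndal, 8.88% in Ifi203 and 5.31% in Ifi207 were found exactly in another gene or pseudogene of the cluster, and none in Aim2. The windows of Ifi209 were shared with Ifi214, and those of Mnda mostly with Ifi205 (44.6%) and Ifi204 (30.0%). The values of Mnda and Ifi205 are thus the least certain. Only 1 transcript per gene was searched, while the values are sums over all transcripts, and that of Aim2 carried 42.4% of the gene's RPKM. At the estimated depth Mnda rests on about 46 to 146 reads per mouse, Ifi205 on about 150 to 330 and Mndal on about 978 to 2961.

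**Figure D5:**
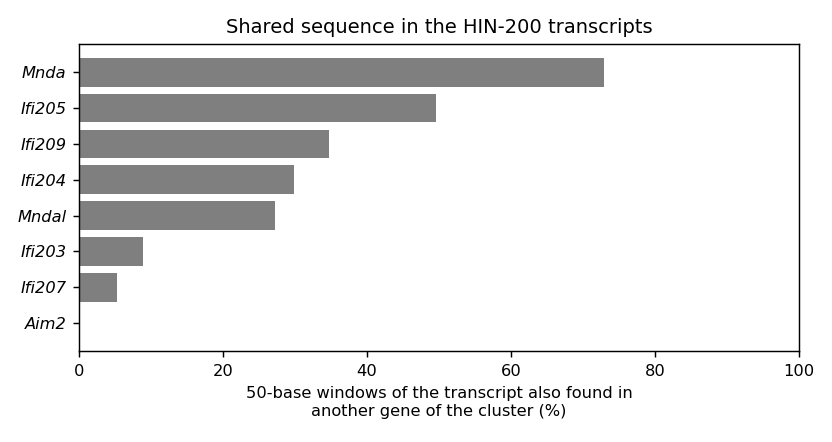
Share of the 50-base windows of each member's main transcript that also occurs in another gene of the cluster (horizontal axis, %). The share is 72.9% for Mnda and 0 for Aim2.

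The tables list 44 transcripts for the 8 members. Mndal has 7, of which NM_001170853.1 took 49.9% of the gene's RPKM. That transcript was at 34.8 ± 5.32 RPKM in the Con-sa mice, 21.7 ± 3.399 in the B-sa mice, 34.6 ± 5.58 in the B+Con-FMT mice and 47.1 ± 12.7 in the B+A10-FMT mice (SD, n = 3). The predicted transcript XM_011238736.2, with 17.3%, was at 14.1 ± 1.64, 6.397 ± 0.660, 9.17 ± 1.48 and 18.1 ± 5.60 RPKM, so that the lower B-sa level was seen in both. For Aim2, which has 17 transcripts, NM_001013779.2 took 42.4% and was at 11.9 ± 2.12, 14.02 ± 1.67, 11.3 ± 0.650 and 13.4 ± 2.41 RPKM. With NM transcripts alone the Aim2 difference of B-sa from Con-sa changed sign, from -0.07 to 0.22 (limma adjusted p = 0.347), and neither passed. Ifi205 and Ifi209 have 1 transcript each, and Ifi204 took 99.8% of its level from 1 of 2.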

How the data were processed

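Spleen RNA was enriched with oligo(dT) beads and made into libraries by the authors, with 3 mice in each of 4 groups taken from the sample labels and the group names of the study. Per the labels, HISAT and Bowtie2 were used with build mm10, while the study's methods name SOAPaligner and another sequencer, and how reads shared by similar genes were divided is not given in the sources used here. The deposited values are RPKM per RefSeq transcript, computed by the authors, and counts were not used here.

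RPKM was summed over the transcripts of each gene. The 12671 genes that reached 1 RPKM in 3 or more mice, all 8 members among them, entered limma 3.58.1 (R 4.3.3) as log2(RPKM + 1) (trend and robust settings, all 12 mice, group as the only factor, two-sided, Benjamini-Hochberg adjustment over all genes, called under 0.05). The script was tested on simulated data. The labels do not state that samples are separate animals, and if they are not, p-values measure only technical spread. Members and gene lists were chosen with earlier results of these data known. Named were the 8 members, the other HIN-200 genes in the tables, the 3 most abundant and (up to 6) called genes of each pathway list, with markers mostly as sums, and the 3 genes most like each member. 1 gene that this rule names is not reported here. Alternatives were another pseudocount (0.1), other filters, scalings and transcript choices, a replicate block, and leaving out each mouse. Depth is known only as an estimate from the RPKM step of 1 read, by GENCODE M21 lengths, so no counting intervals are given. Gene names, positions and promoters are those of RefSeq (GRCm38.p6). Ifi204 had no promoter entry. Of 57 interferon-stimulated genes listed, 54 were matched. Figures were drawn with matplotlib 3.10.9.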

Additional observations from a re-analysis of the deposited data

How the results depend on the processing

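With limma, 2 members were called in B-sa against Con-sa, but 0 with NM transcripts or the highest transcript of each gene alone, 3 when only those groups were fitted, and 0 to 4 when a mouse was left out. For B+Con-FMT against B-sa the count was 0, or 0 to 1 when a mouse was left out. For B+A10-FMT against B-sa it was 4, but 2 with NM transcripts or the highest transcript, 0 in those groups alone, and 2 to 5 when a mouse was left out. For B+A10-FMT against B+Con-FMT it was 4, but 2 without a filter or with median-of-ratios scaling, 1 in those groups alone or with NM transcripts, 0 with the highest transcript, 5 with totals made equal outside the globin genes, and 0 to 7 when a mouse was left out. B+A10-FMT against Con-sa gave 0 in all fits. The cause of these changes was not tested.

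The r of deviations was -0.37 to 0.19 for mice with the same replicate number and -0.43 to 0.51 for different numbers. With deviations from means of 3 mice, these values cannot show whether mice of the same number share more than the number. With the replicate block, 1 member was called in B-sa against Con-sa, 3 in B+A10-FMT against B-sa, 2 in B+A10-FMT against B+Con-FMT and 0 in the other 2 comparisons.

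Of 880 single-gene values under the alternatives, 784 kept direction and side of the threshold, 73 lost a call, 9 gained one and 14 changed sign, none of them a called change. With NM transcripts or the highest transcript, Aim2 was at 0.223 in B-sa against Con-sa and at -0.071 in B+A10-FMT against B-sa, and Ifi207 at -0.053 in B+Con-FMT against B-sa. The other sign changes came with a mouse left out. In B+Con-FMT against B-sa, Ifi207 then ranged from -0.005 to 0.135 and Ifi209 from -0.037 to 0.138. In B+A10-FMT against Con-sa, Ifi205 ranged from -0.08 to 0.209, Ifi209 from -0.076 to 0.056 and Aim2 from -0.068 to 0.067.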
